A study of Leymus chinensis with 14 samples.

Results

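Sheepgrass (Leymus chinensis) is a steppe grass grown for forage. The comparison described here is low light against normal light in leaves of plants given no added salt (labelled ck). It rests on 3 low-light and 3 normal-light libraries out of 14, and its members are the 20682 annotated plant loci among 29560 loci in the deposited table, chosen because the best protein hit of their most abundant annotated transcript is from a plant. Of these, 16028 had an abundance of at least 1 in at least 2 libraries and were tested; 12422 of them carry a described function.

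All plants, in both light groups, were raised on half-strength medium of Murashige and Skoog, and leaves were taken at 3 weeks of age. Every library name also carries a label of 20 days. No genotype is named in the labels, and the light levels are not given. The other libraries are 3 with high salt and 3 with low salt at normal light, and 2 with high salt at low light; the high-salt libraries are used here as a separate look at the same light contrast. Whether replicates are separate plants is not said in the labels. The p-values therefore describe only how far these libraries spread, and that spread could be technical.

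Leaves in low light gain less energy and carbon. Plants register the change through photoreceptors (phytochromes, cryptochromes, phototropins and the ultraviolet-B receptor UVR8) and through the sugar supply of the cell. Shaded leaves are known to invest less protein in carbon fixation and in protection from excess light. Sugar shortage is known to activate genes that recycle amino acids and to repress costly synthesis, while the ribosome genes of a leaf are known to follow growth.

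The data are abundances per assembled transcript, in a unit of the TPM or FPKM kind that the table does not name, summed to loci; numbers after g are the locus numbers of the table. Changes are log2 differences of (abundance + 1), low light minus normal light, and are called at a limma adjusted p under 0.05 over all 20567 loci tested. Summed abundance was 470000 to 504000 in the low-light and 540000 to 582000 in the normal-light libraries, and the number of reads behind it is unknown. The 100 loci with the highest mean over all libraries held 40.1% to 47.1% of it at normal light and 23.5% to 26.6% in low light. Because of that difference in composition, calls were made both as deposited and after median-of-ratios scaling. The scaling factors were 0.743 to 0.855 at normal light and 1.06 to 1.20 in low light. Changes of single loci are as deposited unless given as scaled. Scaling moved the changes of named loci towards lower values. The rise of ribosomal protein L13-1 (g27922) became 1.88 from 2.36, and that of phototropin-1A (g2054) became 1.49 from 1.96. The leaf label was checked against markers of photosynthetic tissue: loci for chlorophyll a-b binding proteins summed to 23500 to 40800 at normal light and 20400 to 28300 in low light. The root marker chosen, casparian strip membrane protein, had no annotated locus, so it could not be measured. The extraction step in the labels names rice leaves, while the organism given for the samples is sheepgrass. Loci whose best hit is a fungal protein held 0.0332% to 0.0415% of the abundance at normal light and 0.0714% to 0.268% in low light; they are outside the loci described, and their part in the results was not tested.

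In low light 650 annotated plant loci were higher and 681 were lower with both scalings, which is 4.06% and 4.25% of those tested. The median change of the higher loci was 1.62 and that of the lower loci was -1.58 as deposited. A change of at least 2 was reached by 145 of the higher and 190 of the lower loci. The balance between the directions depended on the scaling. As deposited, 1998 loci (12.5%) were higher and 690 (4.3%) were lower, and the median change of all annotated plant loci was 0.37. After scaling that median was 0.04, with 650 loci (4.06%) higher and 1193 (7.44%) lower. Over all loci tested, plant or not, 14.9% were called as deposited. The 3 and 3 libraries did not overlap for 29.1% of annotated plant loci on the higher side and 8.3% on the lower side as deposited, and for 14.1% and 15.3% after scaling. With both scalings they did not overlap for 642 of the 650 higher and 664 of the 681 lower called loci. No overlap as deposited was also a condition of the naming rule, so it gives no separate support to loci named by it. No locus was called in opposite directions by the 2 scalings, and the loci named below as having risen or fallen were called with both. Leaving out normal-light replicate 1 reduced the calls made with both scalings to 202 higher and 365 lower, and leaving out normal-light replicate 3 reduced them to 224 and 336. Without low-light replicate 3 there were 398 higher and 485 lower. In whole leaves, fewer cells of a type and less RNA per cell cannot be told apart.

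**Figure D1:**
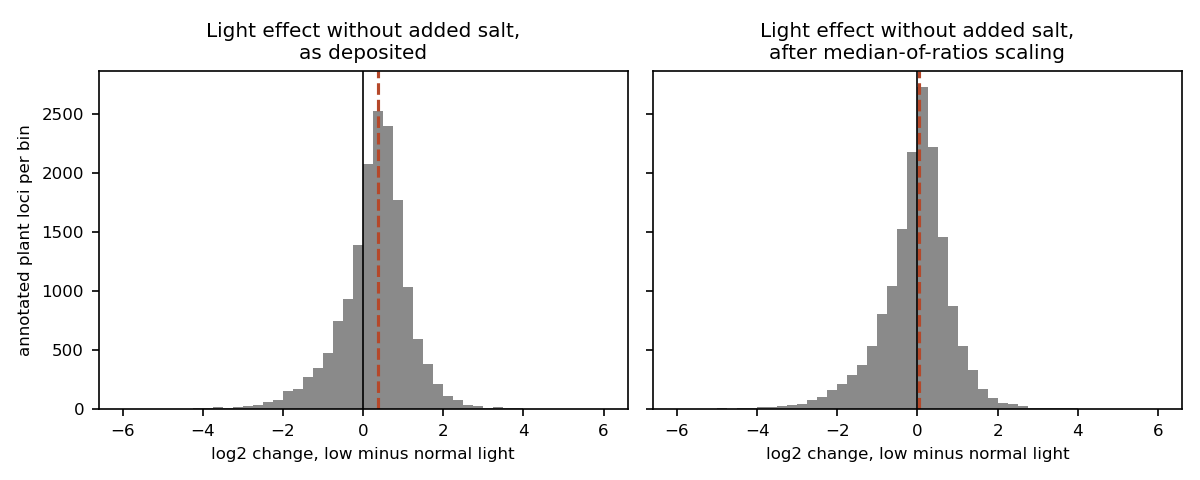
Number of annotated plant loci (vertical axis) by log2 change, low minus normal light without added salt (horizontal axis, bins of 0.25), as deposited (left) and after median-of-ratios scaling (right). The dashed line is the median, 0.37 as deposited and 0.04 after scaling, and the solid line marks no change.

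Across gene lists the direction differed. Cytosolic ribosomal proteins, factors in the ERF and DREB list and genes of sugar starvation were called higher more often than the 4.06% of all loci. Carotenoid, electron transport, photorespiration, Calvin cycle and photosystem genes were called lower more often than the 4.25% of all loci. These shares are descriptions of the lists and carry no test. Loci outside the naming rule given with the processing steps were chosen after their values were seen.

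**Figure D2:**
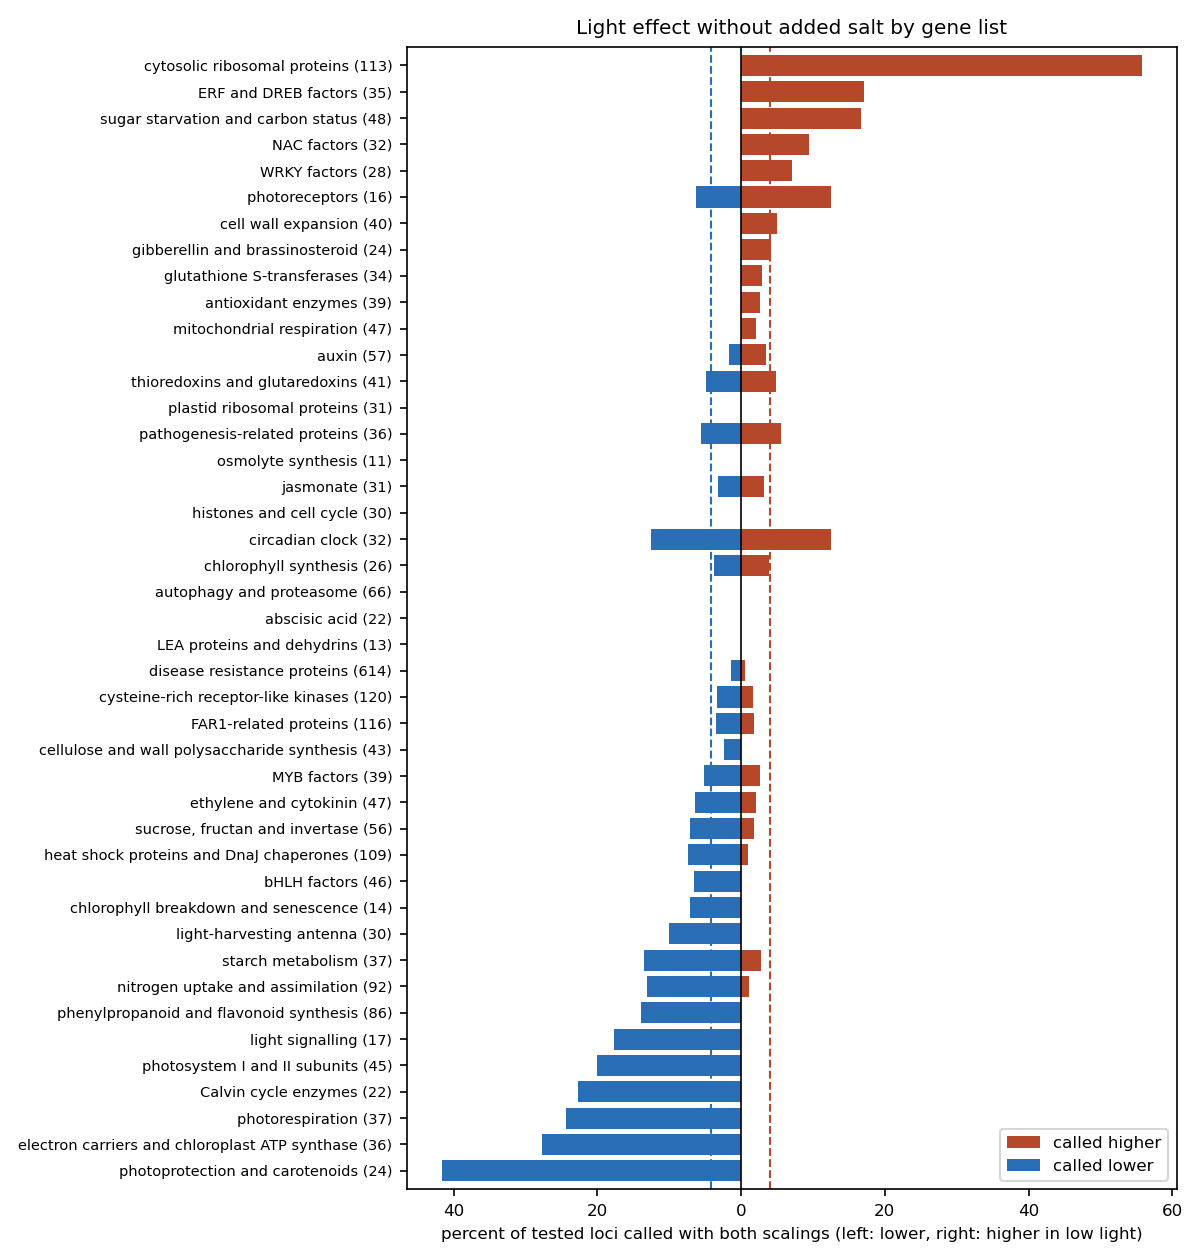
Percent of the tested loci of each gene list called higher (red, to the right) or lower (blue, to the left) in low light with both scalings; the number tested is in parentheses and lists with at least 10 tested loci are shown. The dashed lines are the shares of all annotated plant loci, 4.06% higher and 4.25% lower; 63 of 113 cytosolic ribosomal protein loci lie at one end and 10 of 24 photoprotection and carotenoid loci at the other.

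Among light sensors, the ultraviolet-B receptor locus UVR8 (g25701) had abundances of 22.4, 17.6 and 21.1 in the 3 normal-light libraries and of 1.29, 0.791 and 0.558 in the 3 low-light libraries. All low-light values were far under the lowest normal-light value. It fell by 3.52 (SE 0.37, limma adjusted p = 0.000828), and by 3.89 after scaling. Phototropin-1A (g2054), a blue-light sensor of phototropism and chloroplast movement, had 25.4, 40.6 and 32.6 at normal light and 193, 59.8 and 182 in low light. It rose by 1.96 (SE 0.47, limma adjusted p = 0.0186), with low-light replicate 2 close to the normal-light range. As deposited, the call on phototropin-1A was lost without any one of normal-light replicates 1 and 3 and low-light replicates 1 and 3. The limma adjusted p was then 0.0573 to 0.0806. With both scalings it was also lost without normal-light replicate 2 or either low-light library with high salt. The same held without replicate 1 or 3 of high salt or of low salt at normal light. A scarce phytochrome A locus (g2314, the far-red sensor) was the only other photoreceptor called, at 0.156, 0.421 and 0.0257 against 5.71, 0.747 and 2.28. Of 16 photoreceptor loci tested, 2 were thus higher and 1 lower, and leaving out 1 library gave 0 or 1 higher calls, except 4 without low-light replicate 2.

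Downstream of the sensors, 3 of 17 light-signalling loci fell and none rose, and all 3 belong to the COP1 and SPA ubiquitin ligase, which removes light-promoting transcription factors in the dark. SPA1-RELATED 3 (g26858) had 47.6, 58.0 and 76.2 at normal light and 21.7, 12.8 and 10.1 in low light, a fall of 2.00 (SE 0.36, limma adjusted p = 0.00479). SPA1-RELATED 4 (g19031) fell by 1.59 and COP1 (g9681) fell by 1.06, with limma adjusted p-values of 0.0164 and 0.0206. Without normal-light replicate 3 the count was 1 of 17. Of 116 loci related to FAR1 and FHY3, factors of phytochrome A signalling that belong to a large transposase-derived family, 2 rose and 4 fell, shares under the 4.06% and 4.25% of all loci; FAR1-RELATED SEQUENCE 5 (g189) had 1.48, 0.967 and 0.682 against 16.9, 5.28 and 4.86, and an FHY3-like locus (g15495) had 5.89, 5.02 and 9.93 against 0, 2.24 and 0. Leaving out 1 library gave 0 to 3 rises and 1 to 6 falls in that family.

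Clock genes moved in both directions: of 32 tested, 4 rose and 4 fell. LNK1 (g8798), a coactivator of evening-phased genes, had 207, 175 and 175 at normal light and 91.6, 38.4 and 31.2 in low light, and fell by 1.93 (SE 0.34, limma adjusted p = 0.0044). Members of the REVEILLE family of morning MYB-like factors fell with it, by 3.38 for g19999, 1.45 for g99491 and 1.45 for g98118. The 2 groups of libraries did not overlap for any of these, as for most called loci and by the naming rule for LNK1. GIGANTEA (g98846), an evening gene of the clock and of flowering time, had 18.5, 15.7 and 16.6 at normal light and 38, 38.8 and 38.3 in low light, a rise of 1.14 (SE 0.20, limma adjusted p = 0.00464) that was 0.68 after scaling. A second GIGANTEA locus (g85206) rose by 1.38, and the copies may share reads. The other 2 that rose were annotated CONSTANS-LIKE 10 (g20675 and g99490). The hour of sampling is not given in the labels. The 4 higher calls became 1, 0 and 0 without normal-light replicates 1, 2 and 3 and 2, 1 and 2 without low-light replicates 1, 2 and 3.

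**Figure D3:**
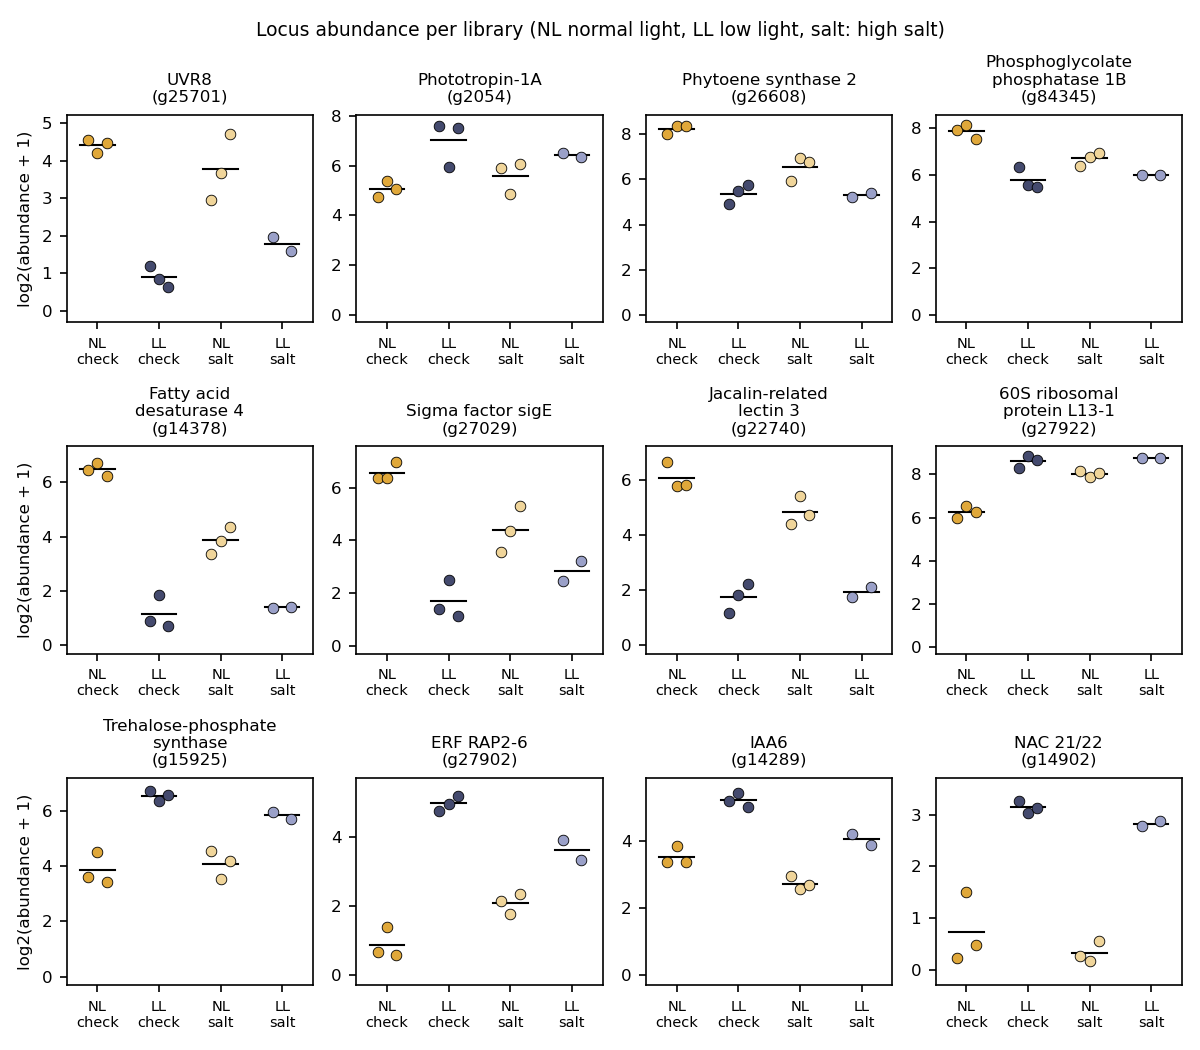
Abundance per library as log2(abundance + 1) of 12 loci named in the text, at normal light (NL) and low light (LL), without added salt (check) and with high salt. Points are libraries (3, 3, 3 and 2) and lines are group means. In all 12 loci the NL check and LL check libraries did not overlap, which the naming rule required.

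Among photosynthesis lists the calls made with both scalings were falls, and in each list most loci were not called. Photosystem I and II subunits fell in 9 of 45 tested loci and rose in none with both scalings (1 was called higher as deposited), with a median change of -0.70 as deposited and -1.14 after scaling. Their summed abundance was 28300 to 32200 at normal light and 17200 to 20100 in low light. The photosystem II 10 kDa polypeptide (g94787), a subunit near the oxygen-evolving complex, had 547, 452 and 595 at normal light and 132, 213 and 242 in low light, and fell by 1.47 (SE 0.24, limma adjusted p = 0.00354). The others were 4 loci of oxygen-evolving enhancer protein 3, 1 of enhancer protein 2, 1 PsbP domain protein and photosystem I subunits IV and XI, which fell by 0.97 to 1.48. The count fell to 3, 5 and 4 without normal-light replicates 1, 2 and 3, and to 5 and 4 without low-light replicates 1 and 3.

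The antenna showed fewer calls: 3 of 30 tested loci fell, with a median of -0.25 as deposited and -0.73 after scaling. OHP2 (g17321), a one-helix protein of the antenna family that helps photosystem II assembly, had 303, 332 and 293 at normal light and 101, 164 and 154 in low light, and fell by 1.17 (SE 0.25, limma adjusted p = 0.0112). The most abundant member to fall was a chlorophyll a-b binding protein (g2545), from 9060, 7400 and 7088 to 4425, 3406 and 3988, with a limma adjusted p of 0.0489. Its groups stood apart although its adjusted p was near the threshold. The summed abundance of the antenna loci overlapped between the groups, at 23900 to 41100 and 20700 to 28600. The 3 calls became 1 without any one of the 3 normal-light or 3 low-light libraries, of replicate 1 of high salt at normal light, or of replicates 1 and 2 of low salt at normal light.

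Among electron carriers and the chloroplast ATP synthase 10 of 36 tested loci fell and none rose. PGR5-like protein 1A (g17884), which takes part in cyclic electron flow around photosystem I, had 377, 487 and 345 at normal light and 193, 159 and 134 in low light, a fall of 1.31 (SE 0.22, limma adjusted p = 0.00382). Plastocyanin (g98084), the copper protein that hands electrons to photosystem I, had 2115, 1591 and 804 at normal light and 44.7, 176 and 98.4 in low light, a fall of 3.91 (SE 0.86, limma adjusted p = 0.0126). Its lowest normal-light library was still above every low-light library. Both called ferredoxin--NADP reductase loci (g18235 and g18572), the enzyme that makes NADPH, fell by 1.22 and 0.88, and 4 loci of the chloroplast NADH dehydrogenase-like complex fell by 0.83 to 2.68. The list summed to 7610 to 8620 at normal light and to 2690 to 3360 in low light. The count fell to 4, 6 and 6 without normal-light replicates 1, 2 and 3 and to 6 without low-light replicate 1.

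Carbon fixation showed the same direction. Rubisco and its activase, which removes inhibitors from Rubisco's active site, summed to 10800 to 11900 at normal light and to 2300 to 4870 in low light, and 3 of 8 tested loci fell. The abundant activase locus (g8562) had 5250, 5856 and 7277 at normal light and 2082, 1255 and 274 in low light, a fall of 2.76 (SE 0.68, limma adjusted p = 0.02). Its low-light libraries differed widely among themselves but lay under all normal-light ones. A partial activase locus (g207945) fell by 2.07 and a Rubisco small chain locus (g196503) fell by 1.48, from 4276, 3249 and 2705 to 1617, 1377 and 772. Without normal-light replicate 1 the list had 1 call. In the Calvin cycle 5 of 22 loci fell and none rose; ribose-5-phosphate isomerase (g1913) had 556, 528 and 561 at normal light and 201, 306 and 257 in low light, a fall of 1.12 (SE 0.19, limma adjusted p = 0.00396). Phosphoribulokinase (g24751), which regenerates Rubisco's substrate, fell by 1.73 from a range of 2768 to 3111 to a range of 566 to 1546. The 5 calls became 3 without any one of normal-light replicates 1, 2 and 3 and low-light replicate 3.

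Photorespiration recycles the product of Rubisco's reaction with oxygen, and 9 of its 37 tested loci fell while none rose with both scalings. Phosphoglycolate phosphatase 1B (g84345), the first enzyme of the route, had 243, 280 and 185 at normal light and 79.9, 46.5 and 43.1 in low light, a fall of 2.08 (SE 0.29, limma adjusted p = 0.00199). The P protein of glycine decarboxylase (g1444) fell by 2.17, from 2562 to 3164 down to 323 to 1104. Both serine hydroxymethyltransferase loci called (g129316 and g85729) fell by 1.89 and 1.92, and D-glycerate 3-kinase (g83113), the last enzyme, fell by 2.07. Calls were thus spread from the first to the last step. The list summed to 9470 to 10100 at normal light and to 2650 to 4250 in low light, and its count was 5 without normal-light replicate 1 or 3.

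Photoprotection and carotenoid genes had the highest share of falls among lists of at least 10 loci, 10 of 24, with 23 of 24 negative after scaling and a median of -1.44. Phytoene synthase 2 (g26608), the entry enzyme of carotenoid synthesis, had 252, 320 and 329 at normal light and 28.8, 43.4 and 51.9 in low light, a fall of 2.86 (SE 0.33, limma adjusted p = 0.00118). Zeaxanthin epoxidase (g833), of the xanthophyll cycle, fell by 1.52 from 348, 360 and 349 to 102, 207 and 87.0, and violaxanthin de-epoxidase (g20395), which works in the opposite direction, fell by 0.93. Another 5 of the 10 are prolycopene isomerase loci, 4 of which have nearly the same values and may share reads. The count fell to 4 and 3 without normal-light replicates 1 and 3 and to 4 without low-light replicate 3.

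Chlorophyll synthesis loci were called with both scalings at shares near the 4.06% higher and 4.25% lower of all loci. Of all loci, 12.5% were called higher as deposited and 7.44% lower after scaling. Of 26 synthesis loci 1 rose and 1 fell with both scalings, although 5 were called higher as deposited and 3 lower after scaling, and the median was 0.41 as deposited and -0.04 after scaling. Uroporphyrinogen decarboxylase 1 (g17406), an early tetrapyrrole enzyme, had 57.0, 62.9 and 61.5 at normal light and 114, 218 and 142 in low light, a rise of 1.32 (SE 0.24, limma adjusted p = 0.00509). Geranylgeranyl diphosphate reductase (g144863), which makes the phytyl tail, fell by 1.14 with a limma adjusted p of 0.0271, and its call was lost without any one of 5 of the 6 libraries (adjusted p up to 0.0968). In the list for chlorophyll breakdown and senescence 1 of 14 loci fell (2 were called lower after scaling), the locus annotated senescence-associated protein OSA15 (g1786), from 338, 288 and 338 to 160, 122 and 111. The 1 rise in chlorophyll synthesis was called with both scalings in none of the fits that left out 1 library except without low-light replicate 1, where 3 were, and the 1 fall ranged from 0 to 2.

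**Figure D4:**
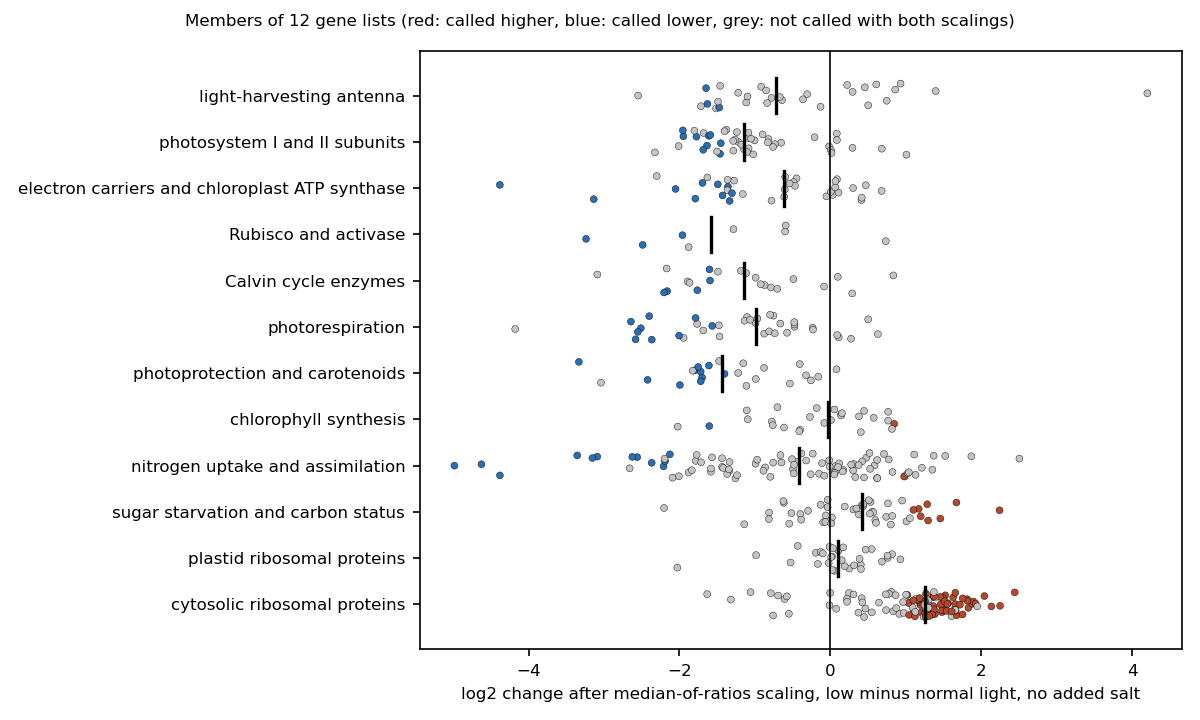
Log2 change after median-of-ratios scaling (horizontal axis), low minus normal light without added salt, for each tested locus of 12 gene lists; the vertical offset within a list only separates points. Black bars are list medians, from -1.58 for Rubisco and activase to 1.26 for cytosolic ribosomal proteins.

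The clearest rise was in cytosolic ribosomal proteins, the proteins of the ribosomes outside the organelles. Of 113 tested loci 63 rose and none fell with both scalings, 80 were called higher as deposited, and the median change was 1.71 as deposited and 1.26 after scaling. Ribosomal protein L13-1 of the large subunit (g27922) had 61.9, 91.5 and 76.7 at normal light and 316, 464 and 412 in low light, a rise of 2.36 (SE 0.27, limma adjusted p = 0.00112). The small-subunit protein S4 (g19587) rose from 141, 195 and 143 to 468, 802 and 842, and S6 (g16703) rose from 19.3, 32.7 and 18.4 to 106, 125 and 83.1. In each of them the lowest low-light library was above the highest normal-light one, as in most loci called higher. The 63 rises ranged from 1.49 to 2.82, and the list summed to 2760 to 3650 at normal light and to 7420 to 15700 in low light. The count fell to 26 and 30 without normal-light replicates 1 and 3 and to 34 and 33 without low-light replicates 2 and 3.

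Plastid ribosomal proteins had fewer calls: 3 of 31 were called higher as deposited and none with both scalings. Their median was 0.53 as deposited and 0.11 after scaling, against 0.37 and 0.04 for all annotated plant loci. They summed to 3790, 3790 and 4040 at normal light and to 3490, 7930 and 7000 in low-light replicates 1, 2 and 3. Histone and cell-cycle loci, markers of dividing cells, summed to 594 to 781 at normal light and to 676 to 1480 in low light, and none of 30 was called with both scalings (3 as deposited). Their part in the ribosomal rise was not tested.

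A minority of the loci tied to carbon shortage rose. In the list for sugar starvation and carbon status, 8 of 48 loci rose and none fell, with a median of 0.82 as deposited and 0.42 after scaling. A trehalose-phosphate synthase (g15925), of the family that makes the sugar signal trehalose 6-phosphate, had 11, 21.9 and 9.77 at normal light and 105, 79.7 and 93.8 in low light, a rise of 2.70 (SE 0.44, limma adjusted p = 0.0033). The gamma-1 regulatory subunit of an SNF1-related kinase (g1539), of the cell's energy sensor, rose by 1.63 from 5.03, 6.96 and 5.97 to 20.5, 15.6 and 26.6. Another 3 were asparagine synthetase loci (g27272, g129882 and g94298), an enzyme that stores nitrogen at low carbon cost, which rose by 1.43 to 1.70. The last 3 take part in the breakdown of branched-chain amino acids: 2 lipoamide acyltransferase loci (g12989 and g16855) and 1 aminotransferase (g83038). The count fell to 2 without normal-light replicate 1 or 3, to 5 without low-light replicate 1 or 2, to 4 without replicate 1 of low salt at normal light and to 5 without replicate 1 of high salt at low light.

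Starch and sucrose genes fell in small numbers. Of 37 starch loci 5 fell and 1 rose, and 3 of the 5 are beta-amylases, which release maltose from starch. Beta-amylase 3 (g24100) had 59.4, 135 and 207 at normal light and 16.5, 12.8 and 15.7 in low light, a fall of 2.91 (limma adjusted p = 0.00568). An alpha-amylase (g23732) fell by 2.66, from 11.9, 3.07 and 7.94 to 0.115, 0.22 and 0.37. It passed the abundance filter only through the normal-light libraries without added salt. At normal light its mean was 0.15 with low salt and 0.025 with high salt. Of 56 loci for sucrose, fructan and invertase, 4 fell and 1 rose. Sucrose-phosphate synthase 5 (g81955), of the enzyme family that sets the rate of sucrose synthesis, had 53.2, 56.8 and 69.9 at normal light and 16.4, 15.1 and 6.23 in low light, a fall of 2.26 (SE 0.31, limma adjusted p = 0.00181). Sucrose:sucrose 1-fructosyltransferase (g9451), which starts fructan synthesis in grasses, went from 11.2, 7.68 and 25.3 to 0.0479, 0 and 0.0827. The sugar transporters moved apart: SWEET2b (g89645) fell by 3.91 and SWEET14 (g21255) rose by 1.96. The starch falls became 2 and 3 without normal-light replicates 1 and 3 and 3 without low-light replicate 2 or 3 or either low-light library with high salt, and the 4 sucrose falls became 2 without normal-light replicate 1 or 3.

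Nitrogen uptake and assimilation fell in 12 of 92 tested loci and rose in 1, and the count of falls stayed between 10 and 14 whichever library was left out. Ferredoxin-dependent glutamate synthase, the chloroplast enzyme that assimilates ammonium together with glutamine synthetase, was lower at 3 loci, the most abundant (g14019) at 661, 901 and 677 against 309, 285 and 124. The leaf glutamine synthetase (g18501) fell by 2.10. Ammonium transporter 1 member 1 (g15617) had 66.8, 115 and 107 at normal light and 12.6, 22.9 and 8.63 in low light, a fall of 2.69 (limma adjusted p = 0.00295). The largest falls were of asparaginase (g84746), which frees ammonium from asparagine, by 4.62 (SE 0.64, limma adjusted p = 0.00189) from 43.2, 51.6 and 23.4 to 0.402, 0.122 and 1.40, and of the transporter NRT1/PTR FAMILY 6.4 (g8007), by 4.21. The other 2 asparaginase loci called fell too, and the copies may share reads. Asparagine synthetase and asparaginase loci therefore moved in opposite directions. NRT1/PTR FAMILY 8.3 (g19307) was the 1 locus to rise, from 2.21, 4.79 and 4.39 to 11.1, 12.7 and 9.53, and it was not called with both scalings without any one of normal-light replicates 1 and 3 and low-light replicates 1 and 3, among others.

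Several groups had more loci called higher as deposited than after scaling. The same held for all annotated plant loci, with 12.5% as deposited and 4.06% after scaling. Autophagy and proteasome loci had 18 of 66 called higher as deposited, and 2 called lower after scaling with a median of 0.13. Mitochondrial respiration had 11 of 47 called higher as deposited and 1 after scaling, cytochrome c oxidase subunit 5b-1 (g81777). Antioxidant enzymes had 11 of 39 called higher as deposited, against 1 higher and 2 lower after scaling. The 1 antioxidant locus called with both scalings was a superoxide dismutase (g20282), at 17.6, 20.9 and 14.4 against 66.7, 45.4 and 105, a rise of 1.91 (SE 0.34, limma adjusted p = 0.00477). Among thioredoxins and glutaredoxins, small proteins that reduce disulfides, 2 of 41 rose and 2 fell: thioredoxin M3 of the chloroplast (g23755) fell by 1.78 from 36.7, 55.5 and 51.1 to 20, 10.8 and 10, and glutaredoxin-C14 (g147728) went from 0.704, 1.37 and 0 to 4.98, 8.93 and 7.37. In glutathione S-transferases 1 of 34 rose, a share under the 4.06% of all loci. The thioredoxin and glutaredoxin shares were near the 4.06% higher and 4.25% lower of all loci, with no test. Leaving out 1 library gave 0 to 3 rises in respiration, 0 to 4 in antioxidant enzymes, 0 to 4 in thioredoxins and glutaredoxins and 0 to 1 in the transferases, with 0 in each without normal-light replicate 1.

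Phenylpropanoid and flavonoid synthesis, the source of lignin and of ultraviolet-screening pigments, fell in 12 of 86 loci and rose in none with both scalings, while the median of the list was 0.01 after scaling. Cinnamate beta-D-glucosyltransferase (g14082) had 59.7, 80.4 and 76.5 at normal light and 2.80, 9.83 and 3.54 in low light, a fall of 3.67 (SE 0.54, limma adjusted p = 0.00238). A malonyltransferase annotated for anthocyanins (g19978) fell by 2.97 from 123, 100 and 186 to 18.2, 10.5 and 21.2. Cinnamoyl-CoA reductase, the first enzyme committed to lignin, accounted for 5 loci of the name itself and 1 relative. The count was 7 and 5 without normal-light replicates 1 and 3. In the wall, 2 of 40 expansion loci rose, expansin-B7 (g24200) from 0.793, 1.34 and 0.871 to 3.59, 9.34 and 13.8 and endoglucanase 9 (g20712) by 1.44. Of 43 loci for wall polysaccharide synthesis 1 fell, cellulose synthase-like H2 (g1657), by 2.60. The expansion count was 1 without normal-light replicate 1 or 3, and the synthesis count was 2 without normal-light replicate 3.

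Transcription factors in the ERF and DREB list rose in 6 of 35 loci and fell in none with both scalings (2 were called lower after scaling). Of these, 5 or 6 were called higher whichever library was left out. RAP2-6 (g27902) had 0.582, 1.63 and 0.482 at normal light and 26.5, 30.7 and 35.9 in low light, a rise of 4.12 (SE 0.34, limma adjusted p = 0.000206). ERF117 (g24417) was more abundant and rose by 1.90 from 48.4, 73.5 and 56 to 232, 210 and 221. The other rises were of 2 loci annotated BBM2 (g23672 and g15622), CRF3 (g24494) and the cold-response factor DREB1B (g19149). The list was matched by description, and BBM factors belong to the related AP2 branch, not to ERF or DREB. In these loci each low-light library was above every normal-light library, as in most loci called higher.

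Other factor families had small numbers of calls, to be read beside the 4.06% higher and 4.25% lower of all loci. The shares of NAC and WRKY rises and of bHLH and MYB falls were above these. The share of MYB rises was under 4.06%. No difference was tested. A MYB-related locus (g1767) fell by 4.96 (SE 0.52, limma adjusted p = 0.000828), from 77.4, 139 and 138 to 7.06, 2.44 and 0.843, and MYBAS1 (g7996) rose by 2.01 from 21.1, 34.3 and 16.6 to 154, 70.9 and 79.5; in all 1 of 39 MYB loci rose and 2 fell. In NAC factors 3 of 32 rose, NAC 21/22 (g14902) from 0.169, 1.84 and 0.392 to 8.61, 7.16 and 7.82. In WRKY factors 2 of 28 rose, both annotated WRKY 69 (g19855 and g24397), and in bHLH factors 3 of 46 fell, bHLH130 (g22083) from 36.2, 38 and 48.4 to 10, 9.10 and 8.99. The NAC count became 1 without any one of normal-light replicates 1 and 3, low-light replicates 2 and 3 and 4 libraries with salt, and the WRKY count was 0 without normal-light replicate 1 or 2 or low-light replicate 2. The bHLH count was 1 without normal-light replicate 1 or 3, and the MYB falls ranged from 1 to 4.

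Hormone genes changed singly, at shares under or near the 4.06% and 4.25% of all loci except the falls in the ethylene and cytokinin list. No difference from those shares was tested. As deposited, 12.5% of all loci were called higher. In auxin loci 2 of 57 rose and 1 fell with both scalings (9 were called higher as deposited); IAA6 (g14289), a repressor of auxin response, had 9.25, 13.2 and 9.26 at normal light and 34.9, 41.9 and 30.9 in low light, a rise of 1.68 (SE 0.22, limma adjusted p = 0.0016). In the ethylene and cytokinin list 3 of 47 fell and 1 rose, and the 3 falls were of response regulators that cytokinin induces or that carry its signal: ORR4 (g134575 and g8646) fell by 1.87 and 2.02 and ORR22 (g9868) fell by 0.83. ORR4 (g134575) had 19.2, 15.7 and 13.1 against 3.57, 4.38 and 2.94. A homolog of the ethylene-forming oxidase (g26856) rose by 1.81. In the gibberellin and brassinosteroid list 1 of 24 rose, a gibberellin 2-beta-dioxygenase (g27565), an enzyme type that inactivates gibberellin. Abscisic acid loci had no call with both scalings among 22 (2 higher as deposited, 2 lower after scaling). In the jasmonate list the 60 kDa jasmonate-induced protein (g16570) had 0, 2.13 and 0 at normal light and 129, 16.4 and 43.3 in low light, and a 9-lipoxygenase (g22292) fell by 2.04 (SE 0.21, limma adjusted p = 0.000652) to a narrow range of 14.3 to 15. Leaving out 1 library gave 1 to 4 rises and 0 to 1 falls for auxin, 0 to 2 rises and 2 to 5 falls for ethylene and cytokinin, 1 to 2 rises for gibberellin and brassinosteroid, and 0 to 2 rises and 1 to 2 falls for jasmonate; without normal-light replicate 1 or 3 the ethylene and jasmonate rises were both 0.

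Chaperones fell more than they rose, with 8 of 109 lower and 1 higher, and 7 of the 8 are DnaJ co-chaperones of the large heat shock proteins. DnaJ 20 of the chloroplast (g96403) had 176, 245 and 181 at normal light and 43.9, 25.4 and 24.1 in low light, a fall of 2.69 (SE 0.31, limma adjusted p = 0.00118). The count was 5 without normal-light replicate 1 or 3, low-light replicate 3 or replicate 1 of low salt at normal light. Of 13 dehydrin and late-embryogenesis loci none was called as deposited or after scaling. For osmolyte synthesis 1 of 11 was called higher as deposited and none with both scalings. The aquaporin PIP2-1 (g23268), a water channel of the cell membrane, fell by 1.10 (SE 0.23, limma adjusted p = 0.00935) from 107, 134 and 112 to 56.1, 61.5 and 45.3, the 1 call among 5 aquaporin loci.

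Defence genes were called in both directions, at shares under or near those of all loci. Of 614 disease resistance protein loci 3 rose and 9 fell, shares under the 4.06% and 4.25% of all loci, with no test of the difference; the falls became 3 and 4 without normal-light replicates 1 and 3 and 23 without normal-light replicate 2, and the rises ranged from 1 without normal-light replicate 1 to 9 without low-light replicate 3. RGA4 (g8996) had 4.33, 0.890 and 5.32 against 33.4, 32.2 and 12.8, and RGA1 (g216) had 40.6, 30.4 and 24.1 against 3.13, 15.4 and 6.04. Of 120 cysteine-rich receptor-like kinases 2 rose and 4 fell, shares also under the 4.06% and 4.25% of all loci, with no test. The kinase annotated 6 (g18714) had 2.00, 7.32 and 2.60 at normal light and 33.0, 37.1 and 32.2 in low light, a rise of 2.97 (SE 0.40, limma adjusted p = 0.0018). One annotated 10 (g27266) had 21.4, 13.5 and 16.5 at normal light and was listed at 0.0178, 0 and 0 in low light. At normal light its mean was 0.026 with low salt and 0 with high salt. In pathogenesis-related proteins 2 of 36 rose and 2 fell, shares near those of all loci. A beta-1,3-glucanase (g18083) had 7.56, 12.3 and 7.29 against 150, 54.6 and 80.1. Another (g19734) had 21.1, 19.2 and 45.0 against 1.52, 5.81 and 3.55. Leaving out 1 library gave 1 to 5 rises and 3 to 6 falls for the kinases and 1 to 4 rises and 1 to 2 falls for the pathogenesis-related proteins.

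The 10 described loci with the largest falls included plastid and membrane functions. Fatty acid desaturase 4 of the chloroplast (g14378), which in Arabidopsis desaturates a thylakoid lipid, had 87.2, 104 and 74.5 at normal light and 0.848, 2.57 and 0.628 in low light, a fall of 5.33 (SE 0.48, limma adjusted p = 0.000403). The sigma factor sigE (g27029), which guides the plastid RNA polymerase, had 82.5, 81.5 and 126 against 1.62, 4.71 and 1.20, a fall of 4.90 (SE 0.45, limma adjusted p = 0.000403). Ferric reduction oxidase 6 (g23451), which reduces iron for uptake into the cell or chloroplast, fell by 4.39 from 254, 390 and 489 to 33.1, 25.6 and 4.86. Jacalin-related lectin 3 (g22740) fell by 4.34 (SE 0.34, limma adjusted p = 0.000166), from 100, 54.3 and 55.8 to 1.28, 2.55 and 3.72. No overlap between the 3 and 3 libraries was a condition for naming these loci. The rest were a PIX13 kinase (g17812) and a wall-associated kinase (g27682), a mitochondrial sulfurtransferase (g83941), a galactoside fucosyltransferase (g15), and the asparaginase and MYB loci given above, with falls of 4.47 to 5.44.

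Among the 10 described loci with the largest rises were several that were near 0 at normal light. An alpha-aminoadipic semialdehyde synthase (g14893), the first enzyme of lysine breakdown, had 2.16, 3.81 and 2.20 at normal light and 69.8, 22.7 and 112 in low light, a rise of 3.97 (SE 0.51, limma adjusted p = 0.00157). The glycine-rich RNA-binding protein blt801 (g135549) rose by 3.64 from 6.16, 8.91 and 15 to 341, 78.1 and 79.4. Syntaxin-132 (g20298), of the membrane fusion machinery, rose by 3.45 from 0.897, 5.51 and 0.383 to 38, 24.6 and 21.4. The others were as follows. A coatomer subunit (g9956) was listed at 0 in all normal-light libraries and had 46.7, 23.4 and 12.3 in low light, and a lectin receptor kinase (g22041), also listed at 0, had 24.4, 7.17 and 5.77. A sulfurtransferase (g20558) had 37.8, 6.36 and 140 in low light, N-carbamoylputrescine amidase (g18954) had 49.8, 62.8 and 15.2 against 0.198, 14.8 and 0.121, and a ricin B-like lectin (g93163) had 25.1, 31.7 and 3.83 against 0, 3.11 and 0. As deposited, calls were lost without normal-light replicate 1 or 3 for g16570, g9956, g18954, g22041 and g93163 (limma adjusted p from 0.053 to 0.103). The call on g22041 was also lost without normal-light replicate 2 (limma adjusted p = 0.0581). Without low-light replicate 1, calls were lost for g16570, g18954, g22041 and g93163 (limma adjusted p from 0.0506 to 0.0883). Without low-light replicate 2, they were lost for g18954 and g93163 (limma adjusted p = 0.063 and 0.0688). With both scalings g16570, the 1 rise of the jasmonate list, was also lost without low-light replicate 3.

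The same light contrast was also made among plants with high salt, with 2 low-light and 3 normal-light libraries that share none with the comparison above. There 55 annotated plant loci (0.343%) were called higher and 11 (0.0686%) lower. Some of the 55, such as g1435, passed the abundance filter only through the 2 low-light libraries. The median change of all annotated plant loci was 0.08 as deposited and -0.01 after scaling. Of the 650 loci higher without added salt, 558 (85.8%) had a positive change with high salt, against 56.2% of all annotated plant loci; after scaling it was 521 (80.2%) against 47.9%. Of the 681 lower loci, 556 (81.6%) had a negative change, against 43.2% of all, and 586 (86.0%) against 51.5% after scaling. The changes were smaller with high salt, with medians after scaling of 0.32 for the higher and -0.52 for the lower loci, against 1.24 and -1.96 without added salt, the comparison on which they were selected.

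**Figure D5:**
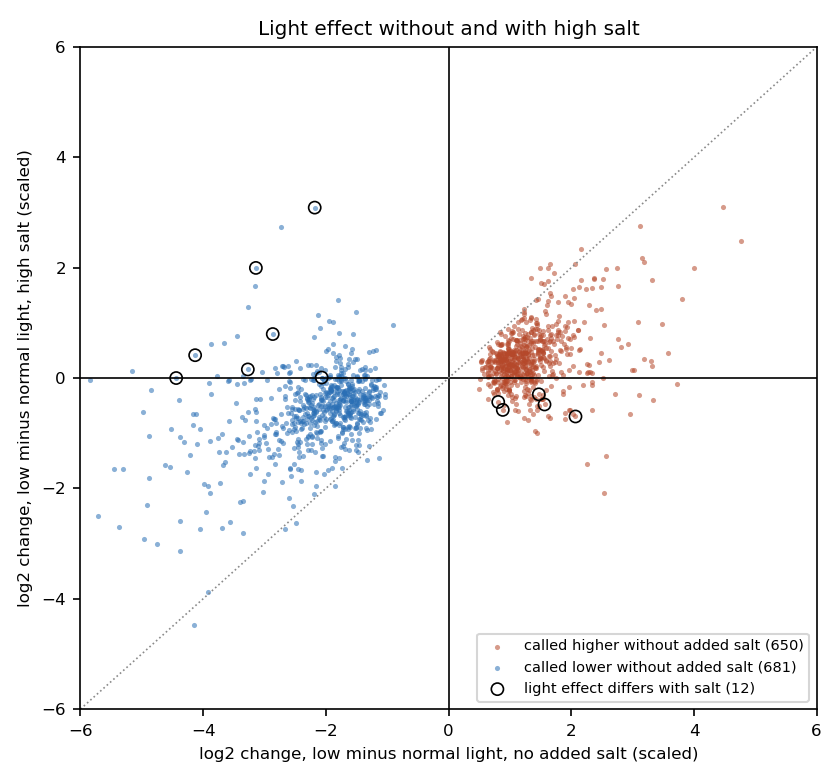
Log2 change after scaling, low minus normal light, without added salt (horizontal axis) and with high salt (vertical axis), for the 650 loci called higher (red) and 681 called lower (blue) without added salt. The dotted line marks equal change; most points lie on the same side of 0 on both axes and nearer 0 with high salt, and circles are the 12 loci whose light effect differed with salt.

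By gene group, all 63 cytosolic ribosomal loci that rose without added salt had a positive change with high salt, of 0.04 to 1.11 after scaling, and all 12 nitrogen loci that fell had a negative one. The direction was also kept by all 6 loci of the ERF and DREB list and by 7 of the 8 sugar starvation loci. Photosystem subunits shared the direction in 7 of 9 loci after scaling (5 as deposited), photorespiration in 8 of 9 (6 as deposited) and carotenoid genes in 9 of 10 (8 as deposited). Other lists shared it less: phenylpropanoid falls in 8 of 12 loci (7 as deposited), disease resistance falls in 6 of 9 (5 as deposited), cysteine-rich kinase falls in 2 of 4 and pathogenesis-related rises in 0 of 2. UVR8 (g25701) had 6.75, 11.9 and 25.4 at normal light with high salt and 2.93 and 2.00 in low light.

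Only 10 of the 650 higher and 5 of the 681 lower loci were called in the same direction among high-salt plants as well, as deposited. The lectin g22740 had 20.6, 42.4 and 25.6 at normal light and 2.36 and 3.35 in low light with high salt (fall of 2.93, limma adjusted p = 0.00356), and a second jacalin-related lectin locus (g20956) fell with it by 2.50. The next were 3 CTP synthase loci (g82179, g86863 and g26994), the enzyme that makes CTP from UTP, which rose by 1.95 to 2.21 with high salt and by 1.59 to 1.96 without added salt, and the copies may share reads. IAA6, NAC 21/22, syntaxin-132, the vacuolar proton pump g15564, cytochrome P450 704C1 (g25345), CCG-binding protein 1 (g1420) and an undescribed locus were the other higher ones. IAA6 had 6.67, 4.83 and 5.36 against 17.4 and 13.6, and NAC 21/22 had 0.198, 0.115 and 0.473 against 5.86 and 6.33. The remaining lower ones were cation/calcium exchanger 1 (g19687), NADPH--cytochrome P450 reductase (g13601) and RETICULATA-RELATED 4 (g15005). After scaling, the calls with high salt were lost for IAA6 (limma adjusted p = 0.0588), NAC 21/22 (0.0529), syntaxin-132 (0.0741) and the proton pump (0.13).

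A test of the difference between the 2 light effects called 21 annotated plant loci (0.131%), with 16 (0.0998%) where the difference was positive and 5 (0.0312%) where it was negative. Several of the 16, such as g1435 and g19242, passed the abundance filter only through the 2 low-light libraries with high salt, where they are high. Of the 21, 5 were among the higher and 7 among the lower loci. All 5 of the higher ones rose without added salt and had a small negative change with high salt. Tubulin beta-5 (g13742), a microtubule subunit, had 17.5, 13.2 and 9.98 at normal light and 81.6, 76.4 and 85.0 in low light without added salt, and 117, 91.2 and 153 against 101 and 61.8 with high salt; the difference was -3.10 (limma adjusted p = 0.0216). A tubulin alpha chain (g81447) had 10.1, 15.9 and 12.5 against 64.7, 43.3 and 46.8, and then 57.1, 41.4 and 39.7 against 44.3 and 36.6 (difference -2.10, limma adjusted p = 0.0407). In these loci the normal-light libraries without added salt were low and the other 3 groups were high. The others were a subunit of pyrophosphate-dependent phosphofructokinase (g23045), the B3 factor IDEF1 (g23975) and a phosphoenolpyruvate/phosphate translocator (g16465), whose calls were lost after scaling (limma adjusted p = 0.0619, 0.0626 and 0.0669). Of the 7 lower loci 3 have a described function: the kinase g27266, ABC transporter C member 8 (g1392) and beta-glucosidase 3 (g92910). The kinase was listed at 0 in every library with high salt. Its mean was also only 0.026 at normal light with low salt.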

How the data were processed

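Leaf RNA was sequenced, and the submitters' processing notes list, with no role given, HISAT2 2.0, StringTie 1.3.0, Bowtie 0.12.2 and the mouse build mm8; the annotation of the plant transcripts is in the table. The authors deposited 1 signal value (an abundance, not a count) per transcript and library in a unit that is not named, so limma was used in place of a count test. The table stops at 65536 lines, of which 4 are broken; genes beyond it were not analysed here. Transcripts were summed to 29560 loci, and loci at 1 or more in at least 2 libraries were kept. Values entered as log2(value + 1), as deposited and after median-of-ratios scaling. One limma 3.58.1 fit (R 4.3.3, trend and robust) of 5 group means used all 14 libraries, with Benjamini-Hochberg adjustment over all 20567 loci; it was tested on simulated data. Tables were made with Python 3.11.15 and pandas 2.3.3.

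The members and gene lists were chosen with earlier results of these data known, and text patterns of some lists were corrected after the table was seen. Lists were matched by the description of each locus. Named loci were called with both scalings, did not overlap between the 3 and 3 libraries, had a mean of at least 5 in the higher group and a description: the 10 highest and 10 lowest changes, and in each list the higher and lower member with the smallest p. That gave 64 loci; 8 undescribed loci among the highest and 3 among the lowest were passed over. Without strand or copy information, overlapping or near-identical loci may share reads. Alternatives were other scalings, filters, pseudocounts, samples and units, and each library left out in turn.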

Additional observations from a re-analysis of the deposited data

Results flagged for a closer look

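Among the described loci called without added salt with both scalings, 8 had a light effect that differed between plants with high salt and plants without added salt by limma's interaction test. The kinase g27266 fell without added salt, and each of the 5 libraries with high salt lists it at 0 (limma adjusted p = 0.000224). At normal light with low salt it had 0, 0.0255 and 0.0526, so it was above 1 only at normal light without added salt. It passed the abundance filter only through those libraries. Tubulin beta-5 (g13742, adjusted p = 0.0216) and a tubulin alpha chain (g81447, 0.0407) rose without added salt, by 2.53 and 1.93, against -0.57 and -0.17 with high salt. The beta subunit of pyrophosphate-dependent phosphofructokinase (g23045) changed by 1.27 against -0.31 (0.0216), IDEF1 (g23975) by 1.32 against -0.46 (0.0311) and the phosphoenolpyruvate/phosphate translocator (g16465) by 2.02 against -0.36 (0.0332). Beta-glucosidase 3 (g92910) changed by -1.72 without added salt and by 3.25 with high salt, where it had 2.96, 6.40 and 0.481 at normal light and 42.2 and 25 in low light (0.0282). ABC transporter C member 8 (g1392) changed by -3.73 against 0.53 (0.0367). The same test called 7 other described loci that were not called without added salt with both scalings (g19242, g1435, g1535, g26697, g15070, g15238 and g82852), with adjusted p from 0.000735 to 0.0267. In each of them both low-light libraries with high salt were above every other library, and g1435 had 13.7 and 7.74 there and was listed at 0 in all others. All but g15238 passed the filter of at least 1 in at least 2 libraries only through those low-light libraries. Their p-values therefore give no separate support for a difference.

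Loci with a fungal best hit, which the comparisons do not use, held a mean of 0.173% of the summed abundance in low light without added salt, against 0.0385% at normal light. Of 965 such loci 6 were called higher with both scalings.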

How the results depend on the processing

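As deposited, 2688 annotated plant loci were called without added salt, and the count was 864 with only the groups compared, 1533 with scaling and the replicate block together and 7146 for transcripts in place of loci. Of these, 1998 were higher, against 650 with scaling, 549 with only the groups compared, 512 with scaling and the block and 5220 transcripts. Lower were 690, against 1193 with scaling, 315 with only the groups compared, 1926 transcripts and 421 among loci whose transcripts share 1 description. Leaving out 1 library gave 1024 to 2771 calls, 659 to 2071 higher and 336 to 700 lower; with both scalings it gave 202 to 744 higher and 336 to 700 lower. The replicate block left 512 higher and 592 lower with both scalings, of which 484 and 568 were shared with the fit without it. Same-numbered libraries of the 2 groups showed little shared deviation (r = 0.033, 0.050 and -0.014). Whether the numbers mark a pairing or a batch is not settled by these values.

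With high salt 66 loci were called, against 135 with no filter, 2 at 5 or more in at least 3 libraries, 23 with pseudocount 0.1, 23 with the block, 20 with scaling and the block, and 0 with only the groups compared, where 1413 had an unadjusted limma p under 0.05; 1 library left out gave 13 to 116. For the difference between light effects 21 were called, against 63 with no filter, 5 with pseudocount 0.1, 9 with the block, 33 without the robust and trend options, 13 with scaling and the block, and 0 with the stricter filter, where 1681 had an unadjusted limma p under 0.05; 1 library left out gave 9 to 102. The causes were not tested.

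None of the 64 named loci reversed in 23 settings. The call was lost by 19 in at least 1 setting, 16 of them with only the groups compared. Apart from settings that change the scaling, these losses were judged as deposited, and losses with both scalings can be more. Without normal-light replicate 2, 2 named loci were lost as deposited. With both scalings that fit called no clock, WRKY, photoreceptor or chlorophyll synthesis locus higher, so the named rise of each of these lists was lost. The number of reads is unknown, so counting error could not be set beside the values, and the light effect with high salt rests on 2 low-light libraries.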

Other observations

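The loci of this section were grouped after their values were seen, so the counts are descriptions. Beside the ribosomal proteins, some loci of other parts of the protein synthesis machinery rose in low light. Of 58 translation factor loci 12 rose and none fell with both scalings, of 81 aminoacyl-tRNA ligases, which load amino acids on tRNA, 8 rose and none fell, and of 36 loci for nucleolar ribosome assembly 12 rose and none fell. Their medians after scaling were 0.69, 0.34 and 0.62, against 0.04 for all annotated plant loci. Of 12 tubulin loci 5 rose.

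Some small plastid and transport families fell. Of 5 plastid sigma factors 3 fell, all annotated sigE, by 4.90 (g27029), 3.32 (g134406) and 2.23 (g86289). Of 5 ferric reduction oxidases 3 fell, and of 17 ABC1 kinases, a family with many plastid members, 7 fell with a median of -1.32 after scaling. Of 5 farnesyl pyrophosphate synthases, which supply sterol and sesquiterpene precursors, 4 fell. DETOXIFICATION efflux carriers moved both ways, with 2 of 36 higher and 7 lower. An early light-inducible protein (g84768), a stress relative of the antenna proteins, had 22.3, 17.3 and 51.2 at normal light and 0.706, 2.34 and 1.68 in low light.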
